A study of Mus musculus with 8 samples.

Results

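The genes described are 6 central genes of protein folding and stress in the endoplasmic reticulum (ER) of the mouse, chosen by their Ensembl IDs from the 54838 IDs counted in each library. Hspa5, Hsp90b1 and Calr encode chaperones of the ER lumen, and Xbp1, Atf4 and Ddit3 encode transcription factors of the unfolded protein response. All 6 had enough counts to be tested, among 16716 genes that did. The libraries came from RNA immunoprecipitation sequencing (RIP-seq), in which lysed cells are incubated with an antibody on beads and the RNA bound to the captured protein is sequenced. Cells were dissociated from the cortex of C57BL/6 mouse embryos at embryonic day 12.5. One group of 4 libraries was pulled down with a rabbit antibody against Exosc10, a nuclease of the nuclear RNA exosome, and the other group of 4 was a mock pull-down with normal rabbit IgG (Normal-IgG). No input RNA was analysed here, so each value is a share of a pull-down and does not give enrichment over the RNA in the cells. Library totals spanned 21731971 to 34506709 counts for Exosc10 and 20967743 to 30199449 counts for Normal-IgG. Whether replicate libraries stem from different embryos or dishes is not in the labels, so every p-value reflects the variation among these libraries and may hold technical variation alone. The makeup of the dissociated cells was not checked against marker genes here, because no table used here pairs other symbols with the IDs.

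The ER lumen is where secreted and membrane proteins fold. Hspa5, also called BiP, is its Hsp70-type chaperone and also holds the stress sensors inactive. Hsp90b1, or Grp94, is the Hsp90-type chaperone of the same compartment, and Calr, calreticulin, is a calcium-binding lectin chaperone for glycoproteins. When unfolded proteins build up, the sensor Ire1 removes a short intron from Xbp1 mRNA so that an active transcription factor is made, and the kinase Perk lowers general translation while Atf4 mRNA is translated more. Atf4 activates genes of amino acid supply and, with other factors, Ddit3, also called CHOP, which promotes cell death under lasting stress. In the developing cortex this response has been tied to the balance between the modes of neuron production by progenitors.

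The promoter sequences describe the 6 genes in a way that does not rest on their counts. The ER stress response element is a 19-base motif that consists of CCAAT, bound by the factor NF-Y, then any 9 bases, then CCACG, bound by Atf6 or Xbp1. It was searched on both strands in the 250 bases before the annotated gene start, in RefSeq sequences of GRCm38.p6, where all 6 genes were found by symbol. The stretches that hold it are printed 5′ to 3′ on the strand of the gene, with the matched element in capitals. A match that reads CGTGG first is the element on the opposite strand.
Hspa5: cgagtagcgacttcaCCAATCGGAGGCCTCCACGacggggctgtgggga
Hsp90b1: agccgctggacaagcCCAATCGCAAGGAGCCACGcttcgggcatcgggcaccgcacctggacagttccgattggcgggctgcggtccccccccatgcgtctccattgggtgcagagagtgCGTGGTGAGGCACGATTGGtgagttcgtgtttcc
Calr: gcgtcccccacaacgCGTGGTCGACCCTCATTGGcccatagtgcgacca

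The Hspa5 stretch lies at chr2:34772010-34772058 on the plus strand, and its element begins 65 bases before the start of the gene. The Hsp90b1 stretch lies at chr10:86705518-86705671 on the minus strand and holds 2 elements in opposite orientation, beginning 212 and 107 bases before the start. The Calr stretch lies at chr8:84847060-84847108 on the minus strand, and its element begins 162 bases before the start. The element was thus present in 3 of 3 chaperone promoters and in 0 of 3 transcription factor promoters, and in 37 of all 32851 promoters in the table, or 0.113%. The CCAAT box alone, whose letters are also part of the element, was found in 5 of the 6 promoters, all but Xbp1, and in 33.8% of all promoters. A further 3 motifs were found in 0 of the 6 windows on either strand. They were ATTGG and CCACG with any 1 base between them, a shorter second form of the element, present in 0.0304% of all promoters, TGACGTGG, a core of the Xbp1 site, present in 0.563%, and TGATGCAAT, an Atf4 site, present in 0.167%. The element is by name a motif of the ER stress response, so finding it in these genes is a description, not a test. These are exact letter matches in a short window, so a form of the element with a mismatch, or one farther away, would be missed. A count of 0 therefore does not show that a gene lacks the element. RIP-seq counts do not measure promoter activity.

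**Figure D1:**
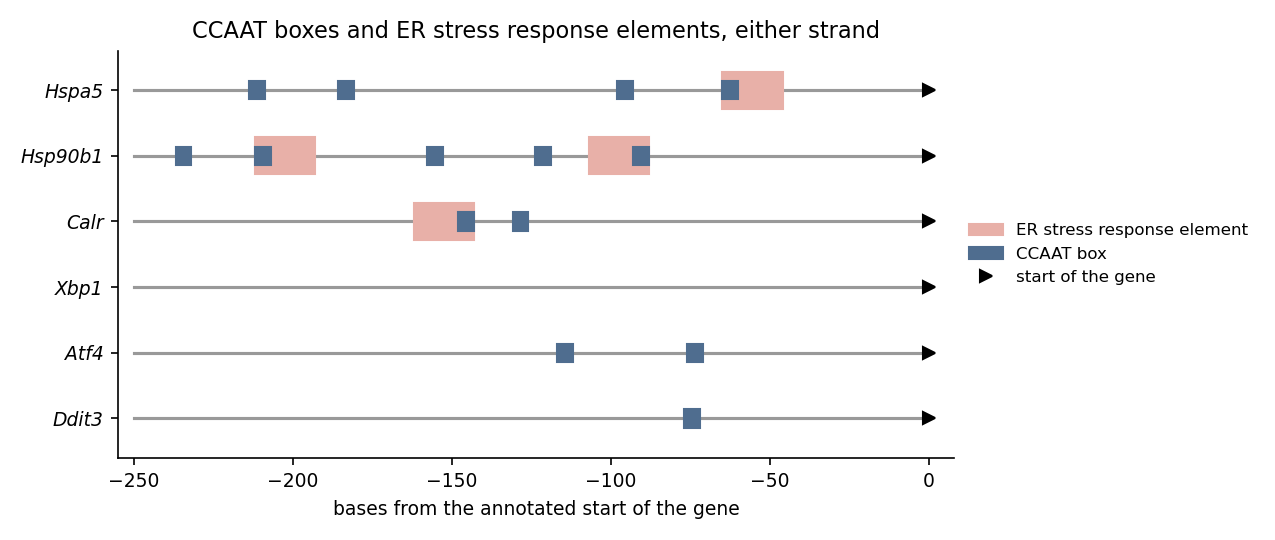
Positions of CCAAT boxes (blue) and of the ER stress response element (pale red) in the 250 bases before the annotated start of each of the 6 genes, on either strand; the x axis is the distance from the start in bases. The element appears in Hspa5, Hsp90b1 and Calr, and a CCAAT box in every gene drawn except Xbp1.

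The question for the pull-downs was whether these mRNAs made up more or less of the RNA captured with the Exosc10 antibody than of that captured in the mock. The cells were pooled, so a value does not show which cell types its RNA came from. None of the 6 genes passed edgeR's quasi-likelihood test, read at an adjusted p of 0.05 over all tested genes. The 3 chaperone mRNAs had fold changes above 1 in the Exosc10 pull-down, from 1.13-fold for Calr to 1.36-fold for Hspa5. The 3 transcription factor mRNAs had fold changes below 1, from 0.741-fold for Xbp1 to 0.973-fold for Ddit3. This split was not stable, as Calr changed sign in 3 and Ddit3 in 5 of 19 alternative settings. The values of the Exosc10 and Normal-IgG libraries overlapped for every one of the 6. Of all tested genes, 13.7% were called, 7.92% higher and 5.82% lower, and the groups did not overlap in 19.1%. The balance of calls over all genes depends on the scaling, with 1324 higher and 973 lower under the scaling used here and 1025 higher and 1369 lower under upper-quartile scaling. With 13.7% called, a count of 0 among 6 genes is near the background. At an unadjusted p under 0.05 the count was 2 of 6, Hspa5 and Xbp1, against 30.6% of all tested genes. With DESeq2 it was 0 of 6 at an adjusted p under 0.05, where 19.9% of genes were called, and with limma-voom and sample weights 1 of 6, Xbp1, where 38.1% were called. Gene values are in CPM, which brings counts to the same library size, after TMM scaling, which corrects for differences in library makeup through a trimmed mean of log ratios. Fold changes are Exosc10 over Normal-IgG.

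Hspa5 (ENSMUSG00000026864) lies at chr2:34772090-34776529 in GRCm38.p6. It stood at 753, 508, 701 and 678 CPM in Exosc10 libraries 1 to 4, against 535, 515, 408 and 487 CPM in Normal-IgG libraries 1 to 4. Exosc10 libraries 1, 3 and 4 lay above every Normal-IgG library, and Exosc10 library 2 lay among them. The means were 660 ± 106 CPM with Exosc10 and 486 ± 55.8 CPM with Normal-IgG (SD, n = 4 each). On the log2 scale the difference was 0.44 ± 0.18 (SE), its 95% interval 0.05 to 0.83, and the adjusted p in edgeR 0.121. In fold terms the interval ran from 1.03 to 1.78. It excludes 1 for this gene taken alone, but the gene does not pass once p-values are adjusted over all tested genes, and 19.4% of tested genes had a higher fold change.

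Hsp90b1 (ENSMUSG00000020048) lies at chr10:86690841-86705444. It had 559, 468, 711 and 684 CPM in Exosc10 libraries 1 to 4, against 547, 485, 401 and 485 CPM in Normal-IgG libraries 1 to 4. Exosc10 libraries 3 and 4 were clearly the highest of the 8, library 1 was just above the highest mock library, and library 2 was below 3 of the 4 mock libraries. The means were 605 ± 113 CPM with Exosc10 and 479 ± 59.6 CPM with Normal-IgG (SD, n = 4 each), and the log2 difference was 0.34 ± 0.19 (SE), with an adjusted p of 0.245 in edgeR and an interval of -0.07 to 0.74. Both of these chaperones thus had Exosc10 library 2 as the lowest of its group and Normal-IgG library 3 as the lowest of all 8.

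Calr (ENSMUSG00000003814) lies at chr8:84842088-84846931. It stood at 1486, 838, 938 and 994 CPM in Exosc10 libraries 1 to 4, against 998, 905, 913 and 954 CPM in Normal-IgG libraries 1 to 4. A single library, Exosc10 library 1, lay above the mock libraries, and the other 3 Exosc10 libraries were all below the highest mock value. The mean was 1064 ± 289 CPM with Exosc10 and 943 ± 42.7 CPM with Normal-IgG (SD, n = 4 each), so the coefficient of variation was 27.1% in the Exosc10 group and 4.53% in the Normal-IgG group. The log2 difference was 0.17 ± 0.20 (SE), with an adjusted p of 0.591 in edgeR and an interval of -0.25 to 0.60, and its sign rested on that library. Without it the log2 fold change of Calr was -0.02 (edgeR adjusted p = 0.943).

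Xbp1 (ENSMUSG00000020484) lies at chr11:5520641-5525993. It had 168, 107, 126 and 136 CPM in Exosc10 libraries 1 to 4, against 154, 160, 198 and 212 CPM in Normal-IgG libraries 1 to 4. Exosc10 libraries 2, 3 and 4 lay below every mock library, and Exosc10 library 1 lay above Normal-IgG libraries 1 and 2. The means were 134 ± 25.8 CPM with Exosc10 and 181 ± 28.4 CPM with Normal-IgG (SD, n = 4 each). On the log2 scale the difference was -0.43 ± 0.19 (SE), its 95% interval -0.84 to -0.03, the adjusted p in edgeR 0.140, and 23.2% of tested genes had a lower fold change.

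Whether Xbp1 was called changed with the libraries and weights used. Without Exosc10 library 1 the log2 fold change was -0.55 ± 0.18 (SE; edgeR adjusted p = 0.04998), and 16.1% of genes were called in that fit. Without Normal-IgG library 1 alone it was -0.50 ± 0.18 (SE) and not called (edgeR adjusted p = 0.0702). Without the libraries numbered 1 of both groups it was -0.63 ± 0.15 (SE; edgeR adjusted p = 0.00457), with 32.2% of genes called. The 3 remaining Exosc10 values of Xbp1, 107 to 136 CPM, then lay below the 3 remaining Normal-IgG values, 160 to 212 CPM. With these 6 libraries the groups did not overlap in 46.2% of all tested genes, and among the members in Xbp1 alone, 1 of 6. With limma-voom and sample weights, which were lowest at 0.315 for Exosc10 library 1 and 0.296 for Normal-IgG library 1, the log2 fold change was -0.70 ± 0.14 (SE; adjusted p = 0.00103). With limma-voom without these weights, an alternative chosen after seeing the data, it was -0.44 ± 0.19 (SE; adjusted p = 0.131). Xbp1 was the one member called in any setting tried.

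Atf4 (ENSMUSG00000042406) lies at chr15:80255184-80257545. It stood at 180, 169, 141 and 144 CPM in Exosc10 libraries 1 to 4, against 183, 262, 183 and 166 CPM in Normal-IgG libraries 1 to 4. Normal-IgG library 2 was well above the other 7, and the other 3 mock libraries covered a range that Exosc10 libraries 1 and 2 shared. The means were 159 ± 19.1 CPM with Exosc10 and 198 ± 43.3 CPM with Normal-IgG (SD, n = 4 each). The log2 difference was -0.32 ± 0.19 (SE), with an adjusted p of 0.263 in edgeR and an interval of -0.73 to 0.08, and it was -0.16 without Normal-IgG library 2 (edgeR adjusted p = 0.613).

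Ddit3 (ENSMUSG00000025408), at chr10:127290793-127296291, had the fewest reads of the 6, 295 to 451 per Exosc10 library and 240 to 472 per Normal-IgG library. It stood at 19.5, 12.7, 9.54 and 13.2 CPM in Exosc10 libraries 1 to 4, against 21.2, 15.03, 9.91 and 10.4 CPM in Normal-IgG libraries 1 to 4. In both groups library 1 was the highest and library 3 the lowest, and the 2 ranges nearly coincided. The means were 13.7 ± 4.19 CPM with Exosc10 and 14.1 ± 5.24 CPM with Normal-IgG (SD, n = 4 each), coefficients of variation of 30.5% and 37.1%. The log2 difference was -0.04 ± 0.27 (SE), with an adjusted p of 0.941 in edgeR and an interval of -0.62 to 0.54, and its sign changed with the library left out, from -0.24 without Exosc10 library 1 to 0.23 without Normal-IgG library 1.

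**Figure D2:**
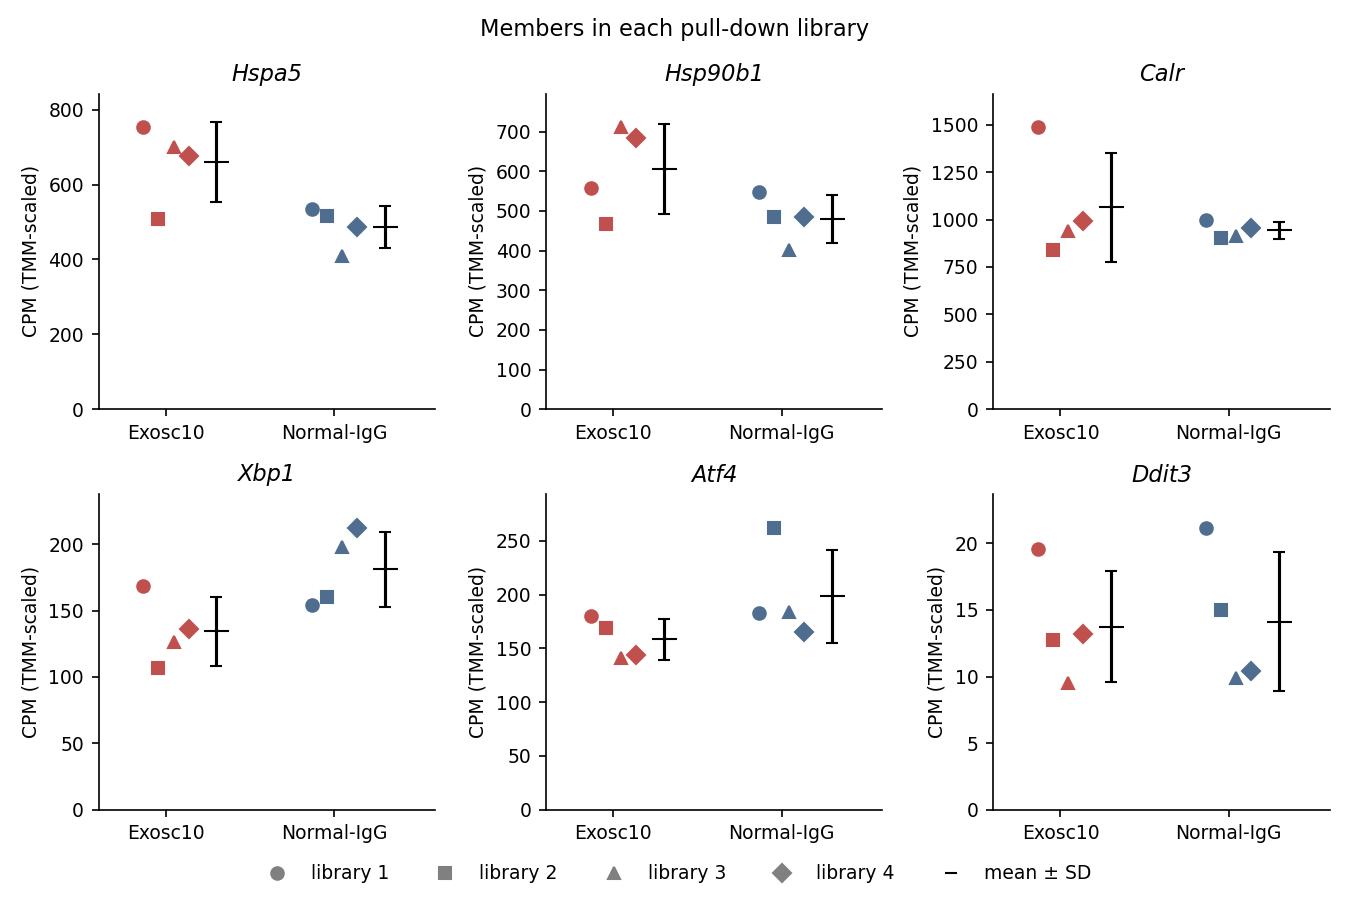
TMM-scaled CPM of each member in the 4 Exosc10 libraries (red, left) and the 4 Normal-IgG libraries (blue, right); marker shape gives the library number and black bars the mean ± SD. The groups overlap in all 6 panels, with Exosc10 library 1 alone at the top for Calr (1486 CPM) and Normal-IgG library 2 alone at the top for Atf4 (262 CPM).

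The intervals limit how large a difference these libraries allow. Taken singly, the 95% intervals of the 6 fold changes in edgeR's fit ran from 0.559-fold at the lower end, for Xbp1, to 1.78-fold at the upper end, for Hspa5. A 2-fold difference in either direction thus lay outside each of the 6 intervals, while smaller differences remained possible for all of them. The SE was 0.18 to 0.20 on the log2 scale for 5 of the members, beside a median SE of 0.20 in the decile of genes with the highest mean CPM, to which these 5 belong, and 0.27 for Ddit3, beside a median of 0.21 in its own decile. In that highest decile, 22.1% of 1672 genes were called, 15.4% higher and 6.70% lower, and the median absolute log2 fold change was 0.38. Hspa5 and Xbp1 lay above that median in absolute size and Hsp90b1, Atf4 and Calr below it. The median log2 fold change was 0.34 for the 3 chaperones, the value of Hsp90b1, and -0.32 for the 3 transcription factors, the value of Atf4. There were 0 higher and 0 lower calls in each. The median was -0.03 over all tested genes and 0.08 in the decile with the highest mean CPM.

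**Figure D3:**
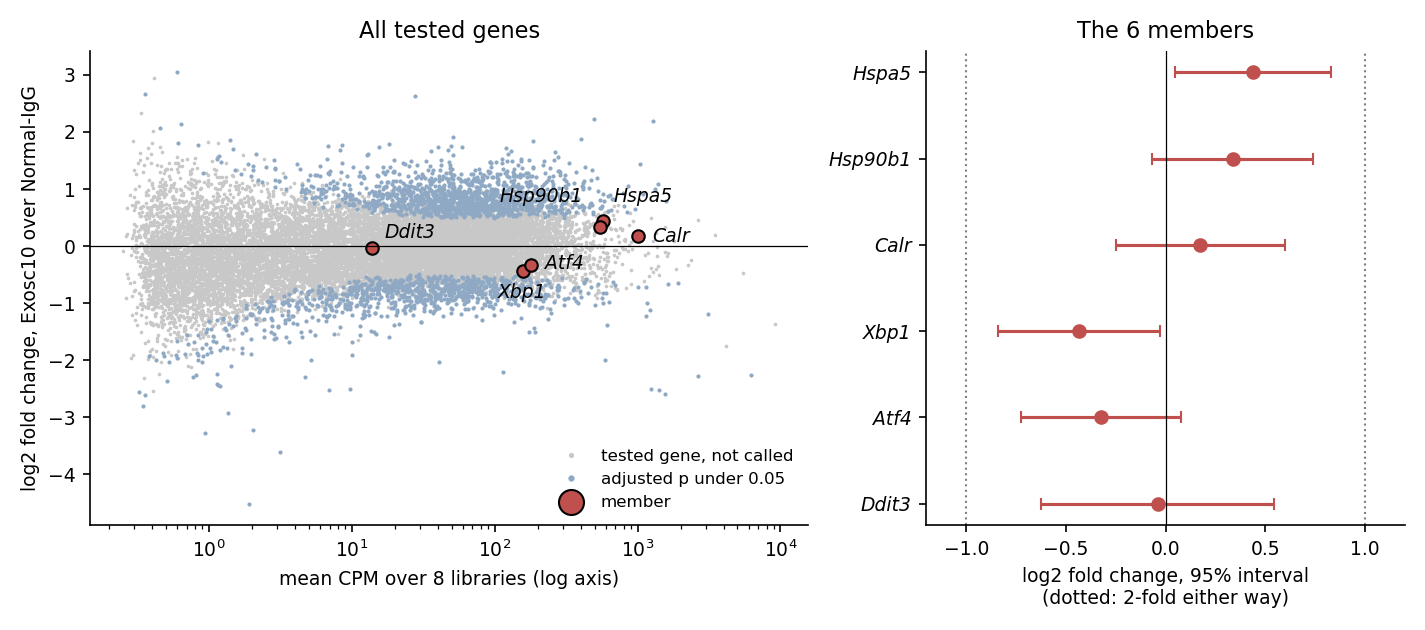
Left, log2 fold change (Exosc10 over Normal-IgG) of all 16716 tested genes against their mean CPM on a log axis, with genes at an adjusted p under 0.05 in blue and the 6 members in red. Right, the 6 members with 95% intervals; Hspa5 and Xbp1 have intervals that do not cross 0, and no interval reaches the dotted lines of a 2-fold difference.

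The members were also set against each other inside each library, where the ratio of 2 read counts does not depend on how libraries are scaled. Of the 15 pairs of members, 3 had ratios that did not overlap between the groups. This is 20.0% of the pairs, beside 22.9% of all pairs among 11710 genes with a mean of at least 5 CPM and no count of 0, so the number of such pairs was near the background. The 3 were among the 9 pairs of a chaperone over a transcription factor, of which the other 6 overlapped, as did all 3 pairs of chaperones and all 3 pairs of transcription factors. Whether the kinds of pair differ was not tested. The ratio of Hspa5 to Xbp1 counts was 4.47, 4.77, 5.56 and 4.97 in Exosc10 libraries 1 to 4, against 3.47, 3.21, 2.06 and 2.29 in Normal-IgG libraries 1 to 4, averaging 4.94 ± 0.46 with Exosc10 and 2.76 ± 0.69 with Normal-IgG (SD, n = 4 each). Every Exosc10 library was above every mock library.

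The ratio of Calr to Xbp1 counts likewise ran from 7.29 to 8.83 with Exosc10 and from 4.49 to 6.47 with Normal-IgG. That of Hspa5 to Atf4 ran from 3.01 to 4.96 with Exosc10 and from 1.97 to 2.94 with Normal-IgG, so that the nearest libraries of the groups almost touched. Among the pairs that overlapped, the ratio of Hsp90b1 to Xbp1 was 3.32 to 5.64 with Exosc10 and 2.03 to 3.55 with Normal-IgG. The ratio of Hspa5 to Hsp90b1 was 0.985 to 1.35 in the Exosc10 libraries and 0.979 to 1.06 in the Normal-IgG libraries, with Exosc10 library 1 the highest of the 8. The ratio of Xbp1 to Atf4 overlapped too, at 0.631 to 0.947 with Exosc10 and 0.612 to 1.28 with Normal-IgG. These ratios are given as values without a test.

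**Figure D4:**
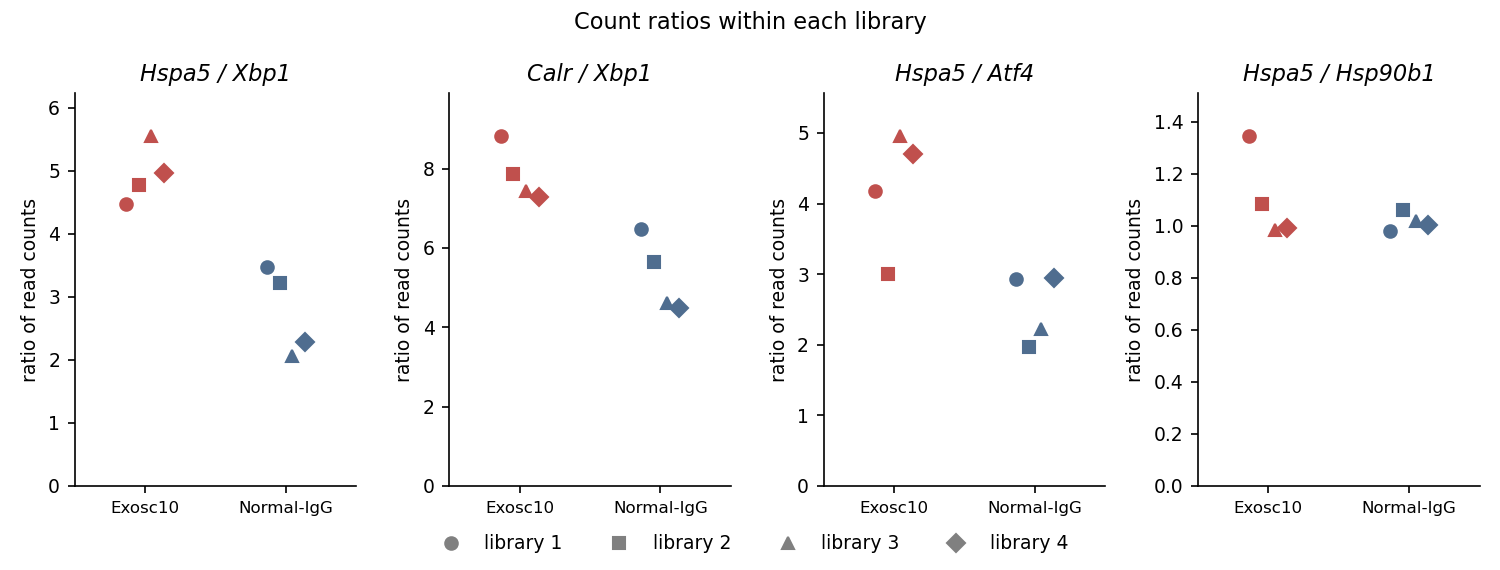
Ratio of the read counts of 2 members within each of the 4 Exosc10 libraries (red, left) and the 4 Normal-IgG libraries (blue, right), for the 3 pairs of 15 that do not overlap between the groups and for Hspa5 over Hsp90b1, which does; marker shape gives the library number. Hspa5 over Xbp1 spans 4.47 to 5.56 with Exosc10 and 2.06 to 3.47 with Normal-IgG.

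How alike the members ran over the 8 libraries was measured as the root mean square difference between the log2 CPM of 2 genes, after each gene was centred on its own mean, among 11711 genes with a mean of at least 5 CPM. Hspa5 and Hsp90b1 were close, at 0.14 log2 units. Of the 11710 other genes, Hsp90b1 ranked 40 in nearness to Hspa5, and Hspa5 ranked 11 in nearness to Hsp90b1. Calr ranked 780 in nearness to Hspa5, at 0.23, and 2376 in nearness to Hsp90b1, at 0.30. From Hspa5, Ddit3, Atf4 and Xbp1 ranked 6135, 7154 and 8037. Among the transcription factors, Atf4 ranked 2503, at 0.34, and Ddit3 ranked 7786 in nearness to Xbp1, and Ddit3 ranked 4902 in nearness to Atf4. Atf4 and Xbp1 were thus about as far apart as Calr and Hsp90b1. Calr, a chaperone, was the member nearest to Xbp1, at rank 2458 and 0.34, just ahead of Atf4. Calr was also the member nearest to Ddit3, at rank 1559 and 0.34, where Atf4 ranked 2721. From Atf4, the nearest member was Xbp1, at rank 3264, and Calr ranked 3867. These distances share the libraries and the group difference, and they describe 8 libraries.

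The gene nearest to Hspa5 was ENSMUSG00000025823, at 0.09 log2 units, with 212 CPM in the Exosc10 and 154 CPM in the Normal-IgG libraries on average and a log2 fold change of 0.46 ± 0.17 (SE; edgeR adjusted p = 0.0795). The gene nearest to Ddit3 was ENSMUSG00000025337, also at 0.09, with a mean of 29.5 CPM with Exosc10 and 29.2 CPM with Normal-IgG and a log2 fold change of 0.01 ± 0.24 (SE; edgeR adjusted p = 0.981). Neither was called, and the files give no symbol for them.

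The 6 mRNAs together took 0.262% ± 0.041 of all reads counted with Exosc10 and 0.232% ± 0.024 with Normal-IgG (SD, n = 4 each). The ranges overlapped, at 0.214% to 0.315% with Exosc10 and 0.201% to 0.259% with Normal-IgG. The highest share in each group was that of its library 1.

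**Figure D5:**
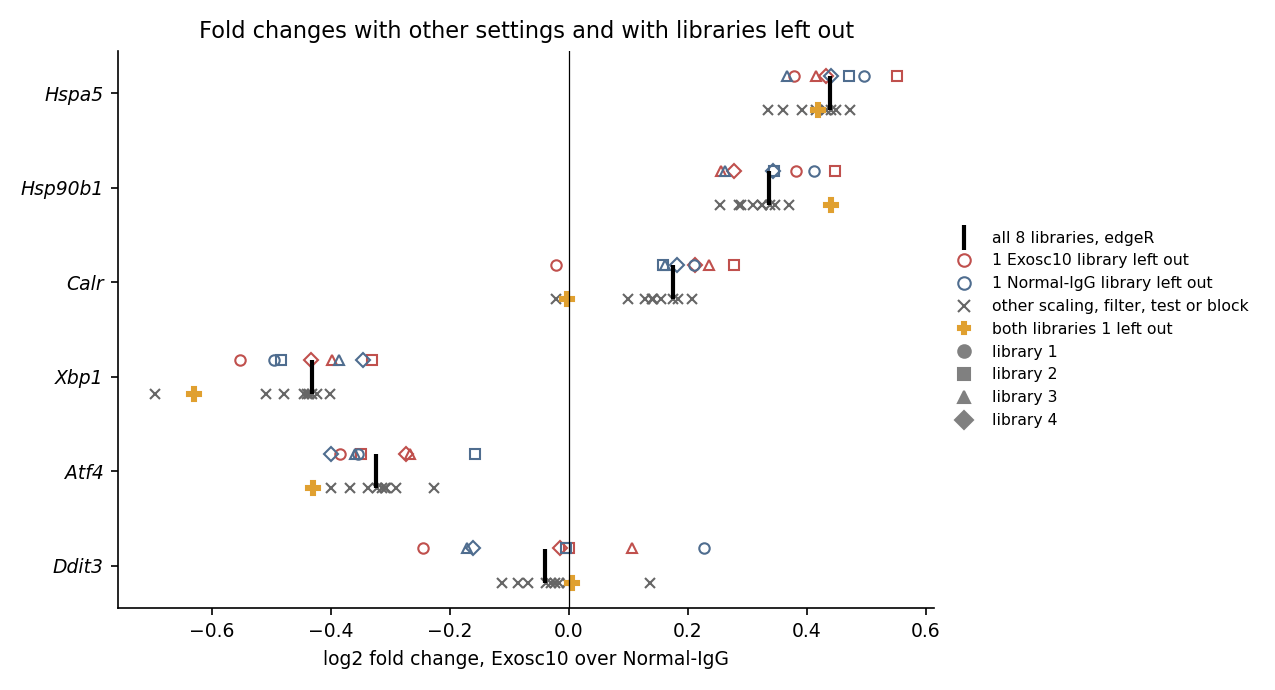
Log2 fold change of each member (x axis, Exosc10 over Normal-IgG) with all 8 libraries in edgeR (black bar), with 1 library left out (open red or blue markers, shape giving its number), with both libraries numbered 1 left out (yellow) and with other scalings, filters, tests or the replicate block (grey crosses). Hspa5 and Hsp90b1 stay above 0 and Xbp1 and Atf4 below 0 in every setting drawn, while Calr and Ddit3 cross 0.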

How the data were processed

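The authors deposited 1 file per library with raw read counts for 54838 mouse Ensembl gene IDs. Per the submitters' processing notes STAR 2.5.2a, featureCounts 1.5.0-p1 and bcl2fastq 2.17.1.14 were used, with build mm10. Strandedness, annotation version and the handling of reads of several genes are not given in the sources used here, and no removal of duplicate reads is named, so reads of overlapping genes or copies could be split and a count need not be an independent molecule. Groups and replicate numbers came from the titles.

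The members and lists were chosen with earlier results of these data known. The naming rule took all 6 members, by the symbols paired with their IDs in the member list, and the gene nearest to Hspa5 and to Ddit3. The RefSeq table, of GRCm38.p6, holds 0 Ensembl IDs, so that pairing was not checked against it, and the wider list of ER stress genes and the tissue markers, fixed by symbol, were not counted.

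The test was that of edgeR 4.0.16 (R 4.3.3) over the 16716 genes kept by filterByExpr (minimum count 10, minimum total 15), with TMM scaling, a quasi-likelihood F-test without covariates, and Benjamini-Hochberg adjustment read at 0.05. The SE is the absolute log2 fold change over the square root of F. Log2 CPM used a prior count of 2. Alternatives were DESeq2 1.42.0, limma-voom (limma 3.58.1) with and without sample weights, other scalings and filters, the replicate block, an exact permutation test and leaving out libraries.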

Additional observations from a re-analysis of the deposited data

How the results depend on the processing

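Each member had 19 alternatives, of which limma-voom without sample weights was chosen after seeing the data; limma-voom values here are otherwise with weights. Hspa5 (0.34 to 0.55 on the log2 scale), Hsp90b1 (0.26 to 0.45) and Atf4 (-0.43 to -0.16) kept their sign and stayed without a call in all of them, at lowest adjusted p-values of 0.0506, 0.0535 and 0.0603, each without both libraries numbered 1. Xbp1 kept its sign (-0.70 to -0.33) and was called in 3, at -0.70 with limma-voom, -0.63 without both libraries numbered 1 and -0.55 when Exosc10 library 1 was left out. Calr changed sign in 3, at -0.021 with limma-voom, -0.022 when Exosc10 library 1 and -0.0028 when both libraries numbered 1 were left out. Ddit3 changed sign in 5, at 0.14 with limma-voom, 0.00055, 0.11 and 0.23 without Exosc10 library 2, Exosc10 library 3 and Normal-IgG library 1, and 0.0045 with neither library numbered 1. Leaving out 1 library gave 0.37 to 0.55 for Hspa5, 0.26 to 0.45 for Hsp90b1, -0.02 to 0.28 for Calr, -0.55 to -0.33 for Xbp1, -0.40 to -0.16 for Atf4 and -0.24 to 0.23 for Ddit3. The exact two-sided permutation p of log2 CPM, unadjusted, was 0.0857 for Hspa5 and for Xbp1, where the smallest possible is 0.0286.

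Over all tested genes, 1324 were higher and 973 lower. The counts were 3363 and 3011 with limma-voom, 2908 and 2555 without both libraries numbered 1, and 588 to 2218 and 261 to 1828 with 1 library left out, and the cause was not tested. Under upper-quartile scaling 1025 were higher and 1369 lower. With the replicate block they were 2489 and 2006, and none of the 6 members was called (Hspa5 adjusted p = 0.0550, Xbp1 0.0561). The labels do not say that the numbers pair libraries, so the main fit had no block. The deviations of same-numbered libraries from their group means had correlations of 0.34, 0.09, 0.34 and 0.22 for numbers 1 to 4. Correlations between libraries of different numbers are not given here, so these values have no baseline. The common coefficient of variation between libraries in edgeR's fit was 0.199 with the block and 0.265 without it. Whether the numbers are pairs was not tested.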
